A study of Homo sapiens with 8 samples.

Results

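The lysosome is represented here by 40 of the 28265 genes in the count tables, chosen by symbol as known genes of the organelle and not by a cutoff on their values. The choice was made with earlier results of these data known. They encode 10 cathepsins or other peptidases, 11 glycosidases or sulfatases, 6 proteins of lipid hydrolysis or transport, 5 membrane proteins or channels, 5 subunits of the proton pump and 3 transcription factors of the MiT/TFE family. All 40 were found and passed the filter on low counts in each of the 6 comparisons. RNA came from IMR90, a line of human lung fibroblasts that is a common model of cellular ageing, and was sequenced by factory RNA-Seq, an approach meant to capture RNA still held at sites of transcription. The labels of the same libraries instead give poly(A) selection of RNA from whole lysed cells, so how far the values reflect new or mature RNA is not known. The 8 libraries were 2 each of untreated control cells (labelled young), cells treated with ICM for 3 days, cells treated with ICM for 6 days and cells labelled MetaICM. ICM is inflachromene, a small molecule that binds the chromatin proteins HMGB1 and HMGB2, and the study asked how gene expression changes in fibroblasts exposed to it. All 4 conditions are described as low-passage cells, the cultures were grown from single isolates of the line, and the labels give no ICM concentration. MetaICM is described only as a treatment of that name, so its agent, dose and duration are not known here.

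Lysosomes break down protein, sugar chains and lipid with hydrolases that work at acid pH, which the vacuolar proton pump (V-ATPase) maintains. TFEB, TFE3 and MITF bind a short element called CLEAR in the promoters of many lysosomal genes and enter the nucleus when mTORC1 signalling at the lysosome surface falls. Senescent fibroblasts are known for an enlarged lysosomal compartment, and the β-galactosidase stain used to recognise them rests on the enzyme encoded by GLB1.

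The libraries held 12095123 to 23166405 counted read pairs, and the closest match of each was its replicate (Pearson r across genes 0.988 to 0.996 between replicates). Levels are given as CPM, the counts on a gene's exons per 1e6 counts of the library, scaled by the TMM method. A gene was called higher or lower with an adjusted p under 0.05 from edgeR's quasi-likelihood test and an absolute log2FC over 0.6. CDKN1A, which encodes the cell cycle inhibitor p21, was at 137 and 95.3 CPM in control, 803 and 645 after 3 days, 802 and 794 after 6 days and 365 and 392 in MetaICM. HMGB2 stood at 43.5 and 34.5 CPM in control and at 3.72 to 4.86 CPM in the 4 ICM libraries, whereas MetaICM had 34.4 and 39.7 CPM. The summed level of 10 fibroblast markers (COL1A1, VIM, FN1 and others) moved with the conditions, from 54599 to 60533 CPM in control to 26535 to 27375 after 3 days, 20966 to 21163 after 6 days and 34621 to 37608 in MetaICM, and its part in the results was not tested. The 10 macrophage markers, from a cell type rich in lysosomes, summed to 3.15 to 5.32 CPM in all libraries, and SPI1, which defines that lineage, had 0 or 1 counts in each. Epithelial markers summed to 68.8 to 104 CPM in control, 36.8 to 38.5 CPM in the ICM libraries and 67.5 to 70.7 CPM in MetaICM, and endothelial markers to 138 to 241 CPM in all libraries. In bulk RNA, a change in the make-up of the culture and a change per cell cannot be told apart. Exon counts hold both new and spliced RNA. Pairs were counted without strand, so antisense RNA on a gene's exons would be counted with the gene. Pairs on exons of several annotated genes were not counted.

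The lysosomal genes as a whole took up more of the RNA in ICM-treated cells. Their counts summed to 3041 and 3515 CPM in the control libraries, 4109.8 and 4482 CPM after 3 days, 4808 and 4917 CPM after 6 days, and 4174 and 4217 CPM in MetaICM. Control was the lowest and 6 days of ICM the highest condition, with no overlap between either of them and the others. After 3 days, 12 of the 40 were called higher and 2 lower, where 8.85% of the 15692 genes tested were higher and 13.2% lower. After 6 days, 15 were higher and 1 lower, against 13.3% and 17.2% of 15950 genes. In MetaICM, 8 were higher and 1 lower, against 7.41% and 8.99% of 15904 genes. The MetaICM count rested on the control libraries, with 13 higher without control replicate 1 and 3 without control replicate 2. The calls of lower genes were few, and came to 4 at 3 days without control replicate 2, to 2 at 6 days without either control library, and to 0 in MetaICM without control replicate 2 or MetaICM replicate 1. The median log2FC of the 40 against control was 0.35 after 3 days, 0.48 after 6 days and 0.30 in MetaICM, and the median of all genes tested lay between -0.001 and 0.009 in these comparisons. CTSL, CTSD, NEU1, GAA, ARSA, GLA, NPC1, ATP6V1A, ATP6V0A1 and TFE3 were the 10 genes called higher at both ICM time points. CTSD alone was called higher in all 3 comparisons with control, though its MetaICM value came to 0.44, under the fold cutoff, without control replicate 2. GUSB alone was called lower at both ICM time points, and 15 were not called in any of the 3. The split of calls over all genes at 3 days depended on the scaling, with 1389 higher and 2067 lower under TMM and 1785 higher and 1767 lower with library totals.

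**Figure D1:**
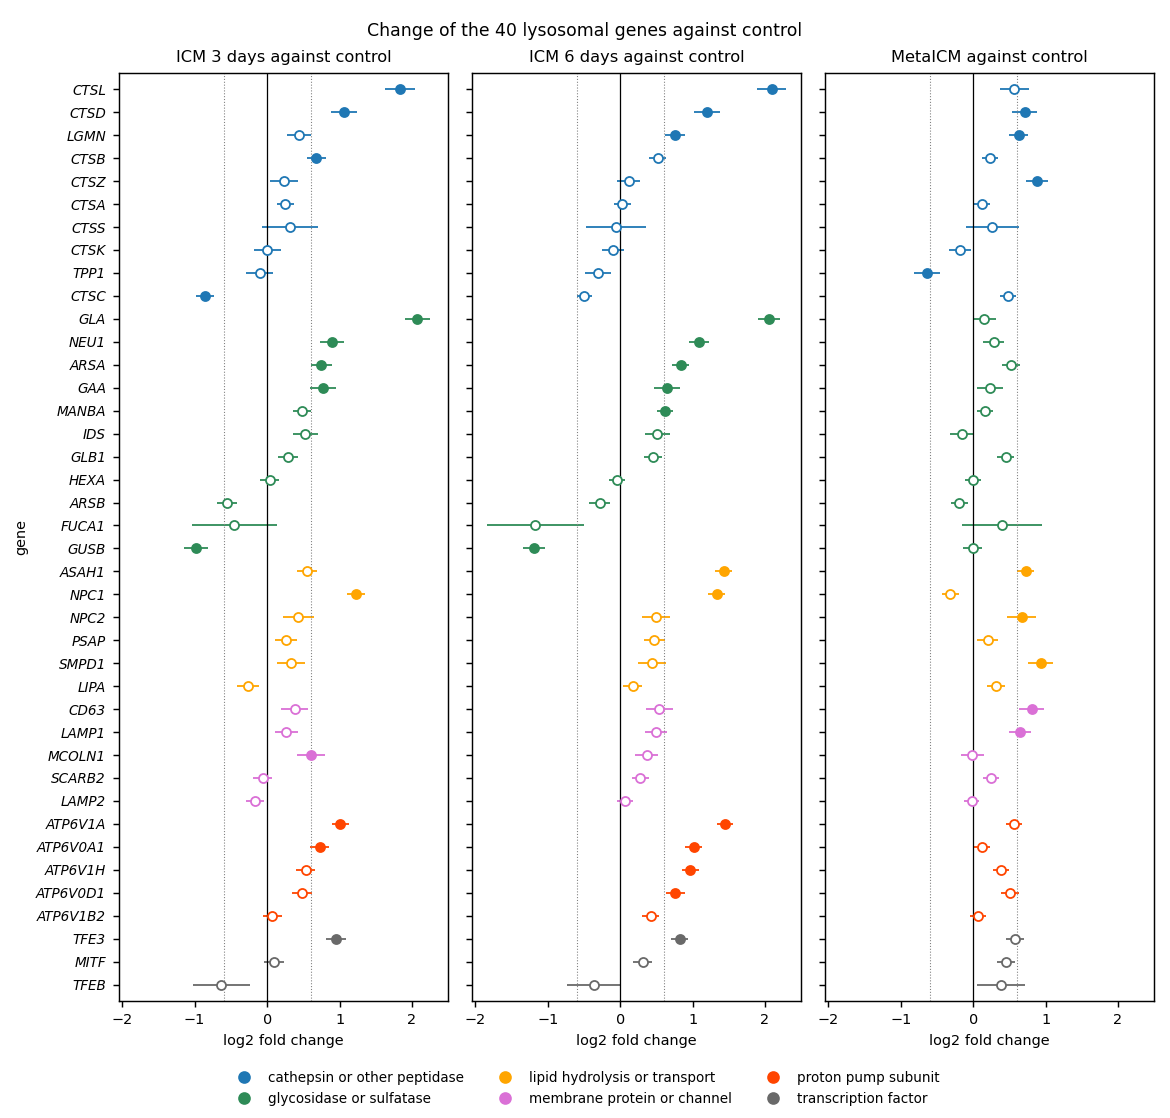
Log2 fold change of each of the 40 lysosomal genes (vertical axis, grouped by role) against control after 3 days of ICM, after 6 days of ICM and in MetaICM (horizontal axes). Bars are standard errors of the fit, filled points were called higher or lower and dotted lines mark the fold cutoff. GLA and CTSL lie farthest to the right at both ICM times and at 0.16 and 0.57 in MetaICM.

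Promoter sequence was given for 27 of the 40 genes, as windows from 250 bases before to 50 bases after the RefSeq start (GRCh38.p14). The 6-base core of the CLEAR element, CACGTG, was found in 8 of these 27 windows (29.63%) and in 7.43% of all 27305 windows of the same length. The windows were not matched in base composition, and CLEAR is an element known from lysosomal promoters. The stretches around 1 core of each of the 8 genes are shown because this is the sequence that TFEB, TFE3 and MITF are known to bind. Each is written 5′ to 3′ on the gene's strand, with 1 core in capitals. The CTSA stretch holds the second core of that window too, which was left in lower case.
NEU1 (chr6:31862917-31862972, minus strand): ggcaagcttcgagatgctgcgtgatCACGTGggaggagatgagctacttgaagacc
CTSD (chr11:1763944-1763999, minus strand): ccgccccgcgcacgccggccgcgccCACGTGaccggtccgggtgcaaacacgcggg
CD63 (chr12:55729159-55729214, minus strand): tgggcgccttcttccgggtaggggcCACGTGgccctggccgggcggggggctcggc
LAMP1 (chr13:113297186-113297238, plus strand): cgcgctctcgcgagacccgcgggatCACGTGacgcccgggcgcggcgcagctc
ATP6V0D1 (chr16:67481186-67481241, minus strand): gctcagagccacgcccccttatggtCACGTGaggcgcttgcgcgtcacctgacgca
GAA (chr17:80101525-80101580, plus strand): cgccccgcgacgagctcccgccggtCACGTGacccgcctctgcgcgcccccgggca
MCOLN1 (chr19:7522585-7522623, plus strand): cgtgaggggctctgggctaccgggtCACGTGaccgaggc
CTSA (chr20:45891285-45891334, plus strand): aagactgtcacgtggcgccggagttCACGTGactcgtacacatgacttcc

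NEU1, CTSD, CD63 and ATP6V0D1 held 1 core, GAA, MCOLN1 and CTSA 2 each and LAMP1 6. NEU1, CTSD and GAA were called higher after 3 and 6 days of ICM, MCOLN1 after 3 days only and ATP6V0D1 after 6 days only. LAMP1, CD63 and CTSD were called higher in MetaICM, and CTSA was not called in any comparison. No CACGTG lies in the windows of CTSL, GLA, NPC1 and TFE3, which were called higher at both ICM times. ATP6V1A and ASAH1, with a higher log2FC than NPC1 after 6 days, had no window. Only 1 window per gene symbol was searched. Whether the core goes with the fold changes was not tested. Searched on both strands, TCACGTG, which contains the core, was in 7 windows (25.93%, against 3.82% of all), TCATGTG in 4 (14.81%, against 2.99%), and CANNTG, which covers all of these, in 19 (70.37%, against 68.94%). Of other elements, TGACTCA was in 2 (7.41%, against 4.92%), CCAAT in 8 (29.63%, against 35.7%) and GGGCGG in 24 (88.89%, against 44.59%). A match is a description of the letters and not of binding. The 13 genes without a window were ARSA, ASAH1, ATP6V1A, ATP6V1B2, ATP6V1H, CTSB, CTSK, CTSS, HEXA, LAMP2, LGMN, MANBA and PSAP.

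**Figure D2:**
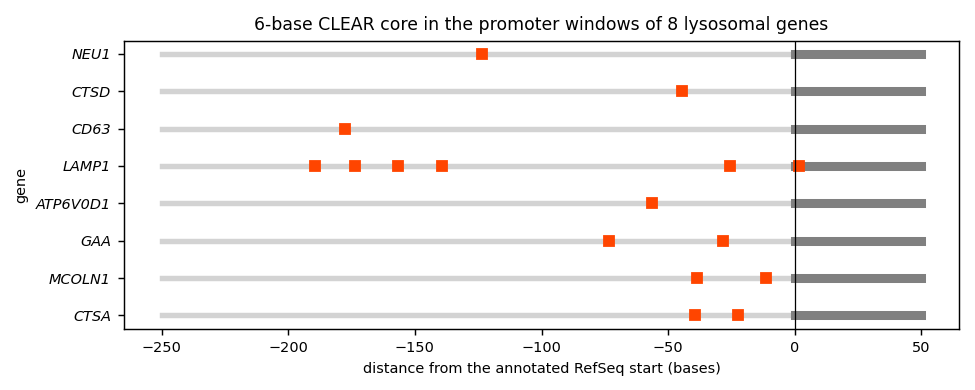
Positions of the 6-base CLEAR core (squares) in the promoter windows of the 8 genes that hold it, as the distance in bases from the annotated RefSeq start (vertical line), with the bases from the start on in dark grey. LAMP1 holds 6 cores, GAA, MCOLN1 and CTSA 2 each, and the others 1.

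Among the peptidases, CTSL and CTSD had the highest fold changes under ICM. CTSL, a cysteine protease that degrades protein in lysosomes and is also secreted, lies on chromosome 9 of hg19 from 90341034 to 90346384. It was at 61.6 and 35.9 CPM in control, 191 and 158 CPM after 3 days, 217 and 202 CPM after 6 days, and 69.0 and 76.9 CPM in MetaICM. The ICM libraries all lay far above both control libraries, and MetaICM lay just above the higher of them. The log2FC was 1.83 after 3 days (SE 0.21, adjusted p = 3.93e-05), 2.09 after 6 days (SE 0.20, adjusted p = 2.12e-05) and 0.57 in MetaICM (SE 0.20, adjusted p = 0.0575, not called). The MetaICM value passed the cutoffs with library totals (0.60, adjusted p = 0.0367) and with the replicate number as a block (0.62, adjusted p = 4.91e-04). It came to 1.04 without control replicate 1. CTSD, the main aspartic protease of the lysosome, lies on chromosome 11 from 1773985 to 1785157. It was at 124 and 79.1 CPM in control, 224 and 201 CPM after 3 days, 226 and 243 CPM after 6 days, and 168 and 167 CPM in MetaICM. All treated libraries lay above control, and MetaICM lay between control and ICM. The log2FC of CTSD was 1.06 (SE 0.18, adjusted p = 9.40e-04), 1.20 (SE 0.18, adjusted p = 4.13e-04) and 0.71 (SE 0.17, adjusted p = 0.0141) in the order 3 days, 6 days and MetaICM.

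CTSC moved the other way under ICM. This dipeptidyl peptidase, which activates serine proteases of immune cells, lies on chromosome 11 from 88026760 to 88070904. Its level was 442 and 447 CPM in control, 244 and 249 CPM after 3 days, 316 and 317 CPM after 6 days, and 606 and 639.9 CPM in MetaICM. The 4 conditions did not overlap, and the order was 3 days, 6 days, control and MetaICM from lowest to highest. CTSC fell by 0.86 on the log2 scale after 3 days (SE 0.12, adjusted p = 2.00e-04), and its log2FC of -0.49 after 6 days (adjusted p = 0.00362) and 0.48 in MetaICM (adjusted p = 0.0116) did not reach the fold cutoff.

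Of the other peptidases, CTSB, an abundant cysteine protease, was at 339 and 302 CPM in control, 555 and 472 CPM after 3 days and 487 and 433 CPM after 6 days. It was called at 3 days (log2FC 0.68, adjusted p = 0.00258) but not at 6 days (log2FC 0.52, adjusted p = 0.00499). LGMN, an asparaginyl endopeptidase, stood at 19.6 and 17.6 CPM in control and was called after 6 days (30.8 and 32.3 CPM, log2FC 0.76, adjusted p = 0.00143) and in MetaICM (29.3 and 28.5 CPM, log2FC 0.63, adjusted p = 0.00732). CTSZ, a carboxypeptidase, was called in MetaICM, at 33.8 and 37.9 CPM against 22.1 and 16.7 CPM in control (log2FC 0.88, adjusted p = 0.00345), and its ICM libraries overlapped with control. TPP1, a tripeptidyl peptidase, fell in MetaICM by 0.63 on the log2 scale (adjusted p = 0.0268), with 29.7 and 33.2 CPM against 38.7 and 59.2 CPM in control. CTSA, at 90.6 to 115 CPM, CTSK, which degrades collagen, at 11.9 to 16.1 CPM, and CTSS, at 0.797 to 1.43 CPM, were not called in any comparison, and 39.9% of the exon bases of CTSA overlap other genes. Several of these calls were lost when 1 library was left out. CTSB at 3 days came to 0.60 without control replicate 2 and 0.56 without 3-day replicate 1, and at 6 days it passed the cutoffs without control replicate 1 (0.62) or 6-day replicate 2 (0.61). In MetaICM, CTSD came to 0.44, LGMN to 0.57 and TPP1 to -0.29 without control replicate 2, CTSD to 1.10 without control replicate 1, and TPP1 to -0.54 without MetaICM replicate 1.

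The glycosidases and sulfatases held the gene with the highest fold change among the 40 at 3 days. GLA, the α-galactosidase that removes terminal galactose from glycolipids and is deficient in Fabry disease, lies on chromosome X from 100652791 to 100662913. It was at 17.7 and 13.8 CPM in control, 72.7 and 60.8 CPM after 3 days, 65.0 and 67.0 CPM after 6 days and 17.7 CPM in both MetaICM libraries. The ICM libraries stood far above all others, and MetaICM was at the level of the higher control library. The log2FC of GLA was 2.07 (4.21-fold, SE 0.17, adjusted p = 2.15e-06) after 3 days, 2.05 (4.15-fold, SE 0.15, adjusted p = 2.21e-06) after 6 days and 0.16 (SE 0.16, adjusted p = 0.483) in MetaICM. NEU1, the sialidase that removes sialic acid and is held in a complex with GLB1 and CTSA, lies on chromosome 6 from 31825436 to 31830598 and is also annotated on 7 alternative haplotypes. It went from 22.7 and 18.4 CPM in control to 41.7 and 34.8 CPM after 3 days and 45.2 and 42.7 CPM after 6 days, with 24.9 and 25.4 CPM in MetaICM. Its log2FC was 0.89 (SE 0.16, adjusted p = 0.00165) and 1.09 (SE 0.14, adjusted p = 1.74e-04) at the ICM times and 0.28 (adjusted p = 0.164) in MetaICM.

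GUSB, the β-glucuronidase on chromosome 7 from 65425672 to 65447200, was the gene of the 40 with the most negative fold change at 3 and 6 days. It stood at 30.0 and 25.7 CPM in control, 13.2 and 15.2 CPM after 3 days, 12.3 CPM in both 6-day libraries, and 26.9 and 28.8 CPM in MetaICM. The ICM libraries lay below all others, and those of MetaICM lay within the range of control. It fell by 0.99 (SE 0.16, adjusted p = 7.84e-04) and 1.19 (SE 0.15, adjusted p = 1.33e-04) on the log2 scale after 3 and 6 days. GUSB is often taken as a reference gene in quantitative PCR and has copies of part of its sequence elsewhere in the genome, and pairs that mapped to several places had not been counted.

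GLB1, the β-galactosidase behind the senescence stain, lies on chromosome 3 from 33038100 to 33138722, and 250 of its exon bases are shared with TMPPE. It was at 60.3 and 50.9 CPM in control, 70.9 and 65.5 CPM after 3 days, 75.9 and 77.4 CPM after 6 days, and 76.7 and 75.6 CPM in MetaICM. All treated libraries lay above control, with a narrow range after 6 days and in MetaICM. The log2FC of GLB1 was 0.29 (SE 0.14, adjusted p = 0.139), 0.46 (SE 0.12, adjusted p = 0.0130) and 0.45 (SE 0.12, adjusted p = 0.0207) in the order 3 days, 6 days and MetaICM, under the fold cutoff in each. The 6-day value came to 0.60, just past the cutoff, without control replicate 1, and passed the cutoffs in no other refit.

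Of the remaining enzymes of this group, GAA, which degrades glycogen, was at 43.0 and 28.3 CPM in control and was called at 3 days (63.1 and 59.1 CPM, log2FC 0.77, adjusted p = 0.00703) and 6 days (60.7 and 52.2 CPM, log2FC 0.65, adjusted p = 0.0144). ARSA, a sulfatase of myelin lipids, rose from 33.6 and 31.7 CPM to 60.1 and 49.6 CPM after 3 days (log2FC 0.75, adjusted p = 0.00267) and to 60.1 and 56.8 CPM after 6 days (log2FC 0.84, adjusted p = 3.57e-04). MANBA, a β-mannosidase, was called at 6 days only, with 109 and 106 CPM against 67.6 and 72.2 CPM in control (log2FC 0.62, adjusted p = 0.00143). IDS, which removes sulfate from heparan and dermatan sulfate, was not called against control, with 28.6 and 41.6 CPM there, 49.1 to 52.0 CPM in the 4 ICM libraries, and 31.6 and 31.0 CPM in MetaICM. HEXA, a β-hexosaminidase subunit, stayed between 66.0 and 73.5 CPM in all 8 libraries and was not called in any comparison, nor was ARSB, at 29.1 to 46.6 CPM. FUCA1, a fucosidase, had 6 to 39 counts per library and its level was poorly measured. The GAA calls rested on control replicate 2, without which the log2FC was 0.51 at 3 days and 0.39 at 6 days. The 6-day value of GAA was 0.55 without 6-day replicate 1 and 1.01 without control replicate 1, and that of MANBA was 0.59 without control replicate 1.

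In lipid handling, the cholesterol exporter NPC1 and the acid ceramidase ASAH1 had the highest fold changes under ICM. NPC1, the membrane protein that moves cholesterol out of lysosomes and is lost in Niemann-Pick disease type C, lies on chromosome 18 from 21111406 to 21166470. It was at 94.8 and 80.8 CPM in control, 208 and 204 CPM after 3 days, 223 and 221 CPM after 6 days, and 71.3 and 70.0 CPM in MetaICM. The ICM libraries lay far above the control libraries, whereas both MetaICM libraries lay below control. The log2FC of NPC1 was 1.23 (SE 0.13, adjusted p = 2.04e-05) after 3 days, 1.33 (SE 0.12, adjusted p = 1.08e-05) after 6 days and -0.32 (SE 0.12, adjusted p = 0.0656, not called) in MetaICM. ASAH1, which splits ceramide and lies on chromosome 8, was at 35.6 and 36.0 CPM in control, 54.8 and 49.8 CPM after 3 days, 97.3 and 96.1 CPM after 6 days, and 56.8 and 62.1 CPM in MetaICM. Control was lowest and 6 days highest, without overlap. Its log2FC was 0.54 at 3 days (adjusted p = 0.0112, not called, but 0.62 without 3-day replicate 2), 1.43 at 6 days (SE 0.12, adjusted p = 5.70e-06) and 0.73 in MetaICM (SE 0.12, adjusted p = 0.00235).

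SMPD1 and NPC2 were called against control in MetaICM and not under ICM, and NPC2 was not called between MetaICM and either ICM time. SMPD1, the acid sphingomyelinase, was at 33.3 and 21.5 CPM in control, 31.8 to 41.1 CPM in the 4 ICM libraries, and 54.6 and 50.7 CPM in MetaICM (log2FC 0.93, adjusted p = 0.00494). NPC2, the soluble partner that hands cholesterol to NPC1, was at 10.7 and 7.46 CPM in control and 13.2 and 16.1 CPM in MetaICM (log2FC 0.67, adjusted p = 0.0309), and this call was lost without control replicate 2 (0.46) and without MetaICM replicate 2 (0.53). PSAP, the precursor of the saposins that present lipids to hydrolases, had the highest level per kilobase of exon of the 40 genes in control, after 6 days and in MetaICM, with 166 CPM per kb in control. Its levels were 526 and 390.0 CPM in control, 585 and 514 CPM after 3 days, and 633 and 639 CPM after 6 days, where the log2FC of 0.47 (adjusted p = 0.0209) lay under the fold cutoff and came to 0.72 without control replicate 1. LIPA, the acid lipase for cholesteryl esters, ranged from 21.8 to 35.4 CPM and was not called in any comparison.

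Of the membrane proteins, MCOLN1 alone was called under ICM, and LAMP1 and CD63 in MetaICM. LAMP1, a main glycoprotein of the lysosomal membrane on chromosome 13 from 113951554 to 113977987, was at 198 and 139 CPM in control, 215 and 189.6 CPM after 3 days, 249 and 228 CPM after 6 days, and 270.4 and 257 CPM in MetaICM. The 3-day libraries overlapped with control, and the 6-day and MetaICM libraries lay above it. CD63, a tetraspanin of late endosomes and exosomes on chromosome 12 from 56119227 to 56123457, was at 191 and 122 CPM in control, 227 and 181 CPM after 3 days, 255 and 201 CPM after 6 days, and 273 and 277 CPM in MetaICM. Both were called in MetaICM, LAMP1 with a log2FC of 0.64 (SE 0.15, adjusted p = 0.0121) and CD63 with 0.81 (SE 0.17, adjusted p = 0.00822), and not at 6 days (0.50, adjusted p = 0.0232, and 0.54, adjusted p = 0.0404). Neither was called between MetaICM and either ICM time. Without control replicate 2, the lower library in both, the MetaICM values came to 0.42 and 0.53 and the calls were lost. Without control replicate 1, the 6-day values came to 0.79 and 0.92 and passed the cutoffs, as did CD63 without 6-day replicate 2 (0.71). MCOLN1, the lysosomal calcium channel TRPML1, was at 12.6 and 11.4 CPM in control and at 20.7 and 15.7 CPM after 3 days, where it was called just past the cutoff (log2FC 0.61, adjusted p = 0.0315). It came to 0.39 without 3-day replicate 1, to 0.54 without control replicate 2 and to an adjusted p of 0.0628 with DESeq2, so that this call is weak. LAMP2, the partner of LAMP1, stayed between 103 and 128 CPM over all libraries and SCARB2, another lysosomal membrane protein, between 139 and 200.2 CPM, and neither was called in any comparison.

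Of the 5 subunits of the proton pump, which joins a V1 part that splits ATP to a V0 part that carries protons through the membrane, 2 were called higher after 3 days of ICM and 4 after 6 days. ATP6V1A, the catalytic subunit on chromosome 3 from 113465882 to 113530903, was at 189 and 177 CPM in control, 369 and 369.6 CPM after 3 days, 482 and 515 CPM after 6 days, and 274 and 268 CPM in MetaICM. ATP6V0A1, a proton channel subunit on chromosome 17 from 40610896 to 40674629, was at 60.0 and 54.5 CPM in control, 90.3 and 99.8 CPM after 3 days, 110.4 and 122 CPM after 6 days, and 65.2 and 59.4 CPM in MetaICM. Both had non-overlapping control, 3-day and 6-day libraries in rising order, while MetaICM overlapped with control only for ATP6V0A1. ATP6V1A rose with a log2FC of 1.01 (SE 0.12, adjusted p = 5.88e-05) and 1.44 (SE 0.11, adjusted p = 3.89e-06) after 3 and 6 days, and ATP6V0A1 with 0.72 (SE 0.13, adjusted p = 0.00141) and 1.01 (SE 0.12, adjusted p = 8.08e-05). In MetaICM, ATP6V1A had a log2FC of 0.56 (adjusted p = 0.00467) and was not called.

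ATP6V1H, a regulatory subunit, was at 57.0 and 50.4 CPM in control, 81.1 and 74.5 CPM after 3 days, 103 and 108 CPM after 6 days, and 70.1 and 70.2 CPM in MetaICM. It was called at 6 days (log2FC 0.97, adjusted p = 1.11e-04) and had 0.53 (adjusted p = 0.0112) at 3 days and 0.38 (adjusted p = 0.0333) in MetaICM. ATP6V0D1, which joins V1 to V0, was at 57.2 and 47.1 CPM in control, 73.1 and 72.7 CPM after 3 days, 83.8 and 93.5 CPM after 6 days, and 73.4 and 75.1 CPM in MetaICM, with a call at 6 days only (log2FC 0.76, adjusted p = 0.00110). ATP6V1B2, the non-catalytic partner of ATP6V1A, was at 64.4 to 73.5 CPM in control, 3-day and MetaICM libraries and at 82.4 and 94.9 CPM after 6 days (log2FC 0.42, adjusted p = 0.0165, not called). Without control replicate 1, ATP6V1H and ATP6V0D1 passed the cutoffs at 3 days as well (0.64 each), and ATP6V0D1 (0.67) and ATP6V1A (0.63) did so in MetaICM. The 5 subunits together came to 393 and 431 CPM in control, 682 and 687 CPM after 3 days, 861 and 933 CPM after 6 days, and 543 and 551 CPM in MetaICM.

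**Figure D3:**
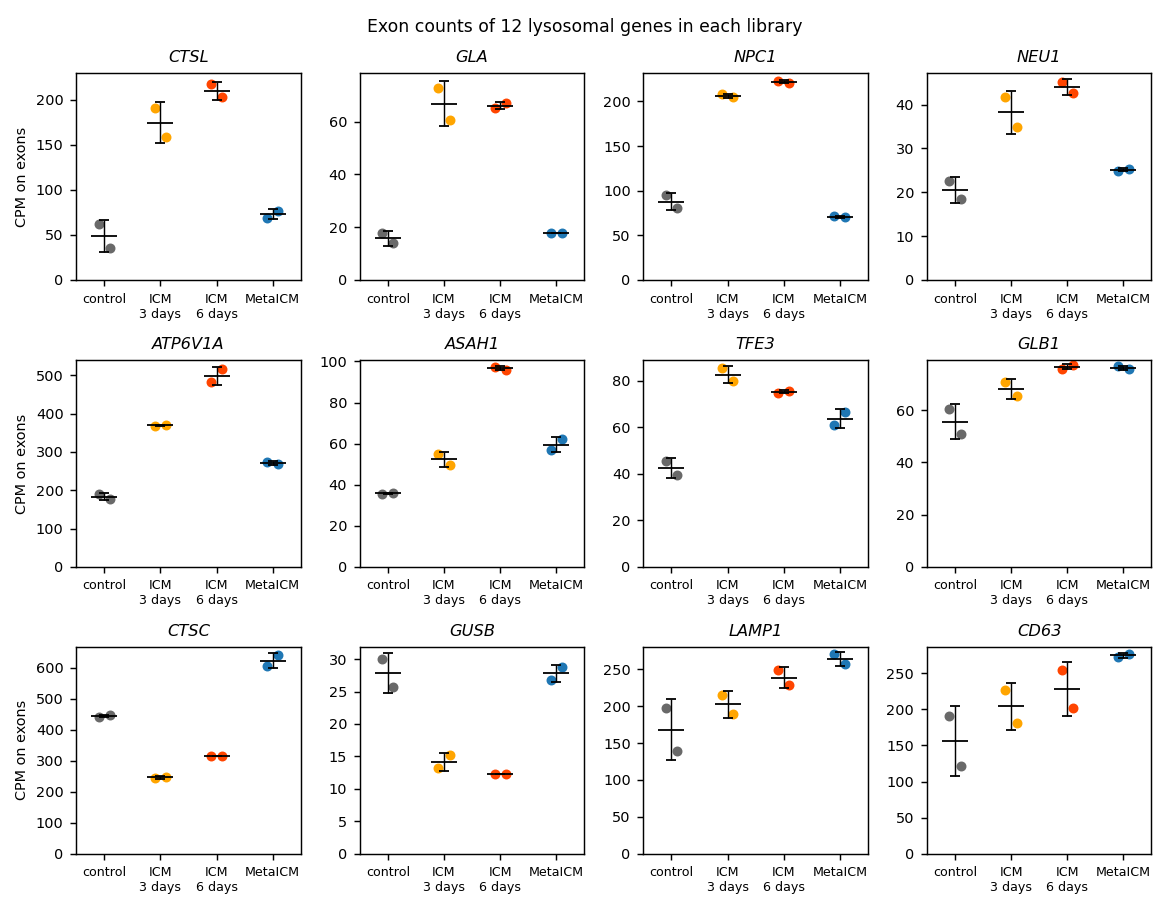
CPM on exons of 12 lysosomal genes in each of the 8 libraries (points), with the mean (long line) and SD (bars) of the 2 libraries of each condition; each vertical axis starts at 0. CTSL, GLA, NPC1 and NEU1 were high in both ICM conditions and nearer to control in MetaICM, ASAH1 and ATP6V1A were highest after 6 days, and CTSC was lowest after 3 days and highest in MetaICM.

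Of the transcription factors, TFE3 rose and TFEB was barely detected. TFE3, on chromosome X from 48886238 to 48900883, was at 45.5 and 39.4 CPM in control, 85.3 and 79.9 CPM after 3 days, 74.9 and 75.7 CPM after 6 days, and 60.8 and 66.7 CPM in MetaICM. The treated libraries all lay above control. Its log2FC was 0.96 (SE 0.14, adjusted p = 2.51e-04) after 3 days, 0.82 (SE 0.12, adjusted p = 4.32e-04) after 6 days and 0.58 (SE 0.12, adjusted p = 0.00790), just under the fold cutoff, in MetaICM. The MetaICM value passed the cutoffs with library totals and without the filter on low counts (0.61 each). It came to 0.71 without control replicate 1 and 0.66 without MetaICM replicate 1. MITF, on chromosome 3 from 69788615 to 70017488, was at 40.6 and 44.5 CPM in control, 45.4 and 45.9 CPM after 3 days, 48.7 and 56.9 CPM after 6 days, and 54.8 and 61.7 CPM in MetaICM. It was not called against control (log2FC 0.10, 0.31 and 0.45, adjusted p = 0.626, 0.0813 and 0.0215). TFEB, on chromosome 6 from 41651716 to 41703961, was at 5.18 and 1.99 CPM in control (87 and 24 counts), 2.67 and 2.02 CPM after 3 days, 3.01 and 2.76 CPM after 6 days, and 5.003 and 4.74 CPM in MetaICM. The 2 control libraries spanned nearly the whole range of the others. Its log2FC against control was -0.63 (SE 0.39, adjusted p = 0.253), -0.36 (SE 0.37, adjusted p = 0.463) and 0.38 (SE 0.34, adjusted p = 0.420), and each of these changed sign when 1 control library was left out, to 0.27 and 0.55 without control replicate 1 and to -0.08 without control replicate 2, while leaving out the other control library took them past the cutoffs, to -1.12, -0.84 and 1.30. Per kilobase of exon, TFEB stood at 1.29 CPM per kb in control against 12.9 for TFE3 and 6.76 for MITF.

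Between 3 and 6 days of ICM, ASAH1 was the only gene of the 40 to be called, with a log2FC of 0.88 (SE 0.10, adjusted p = 2.44e-06). Over all 15845 genes tested, 3.53% were higher and 4.54% lower at 6 days. The 5 proton pump subunits all had positive values, with 0.43 for ATP6V1A (adjusted p = 0.00141) and 0.43 for ATP6V1H (adjusted p = 0.00262), and none reached the fold cutoff. GLB1 had 0.16 (adjusted p = 0.249). The median over the 40 genes was 0.15, against -0.01 over all genes.

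The level of the 40 genes relative to each other shifted with ICM. By mean CPM per kilobase of exon, CTSL went from rank 11 of 40 in control (29.5 CPM per kb) to rank 2 after 6 days (127 CPM per kb), behind PSAP (231 CPM per kb). GLA went from rank 24 (11.5 CPM per kb) to rank 9 (48.0 CPM per kb), and GUSB from rank 23 (12.7 CPM per kb) to rank 37 (5.59 CPM per kb). In MetaICM, CTSL stood at rank 9, GLA at 24 and GUSB at 25, and CD63 at rank 2. CTSS was the lowest in control at 0.286 CPM per kb.

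MetaICM was then compared directly with ICM. Against 3 days, 5 of the 40 genes were higher and 7 lower, where 13.1% of 16209 genes tested were higher and 10.3% lower. Against 6 days, 5 were higher and 8 lower, against 15.7% and 12% of 16036 genes. The genes that were lower in MetaICM than at both ICM times were CTSL (-1.26 and -1.52 against 3 and 6 days), GLA (-1.92 and -1.90), NPC1 (-1.54 and -1.65), NEU1 (-0.61 and -0.81), IDS (-0.69 and -0.67) and ATP6V0A1 (-0.60 and -0.90), with adjusted p from 4.57e-14 to 4.63e-04. GLA, NPC1 and CTSL were 3.73-fold, 3.14-fold and 2.87-fold lower in MetaICM than after 6 days. MCOLN1 was also lower than at 3 days (-0.62, adjusted p = 0.00378), and ATP6V1A (-0.88, adjusted p = 1.84e-09) and ASAH1 (-0.70, adjusted p = 9.82e-08) were lower than at 6 days.

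CTSC, GUSB, CTSZ and TFEB were higher in MetaICM than at both ICM times. For CTSC the log2FC was 1.34 against 3 days (SE 0.08, adjusted p = 9.66e-09) and 0.98 against 6 days (SE 0.07, adjusted p = 3.55e-10), and for GUSB 0.99 (SE 0.12, adjusted p = 1.23e-05) and 1.18 (SE 0.10, adjusted p = 4.71e-09). CTSZ had 0.65 (adjusted p = 7.53e-04) and 0.77 (adjusted p = 6.93e-07), TFEB 1.03 (adjusted p = 0.00247) and 0.75 (adjusted p = 0.00380), and SMPD1 was higher than at 3 days (0.61, adjusted p = 2.51e-04). FUCA1 was higher than at 6 days (1.56, adjusted p = 0.00418) on 39 and 26 counts against 13 and 6. With DESeq2 the TFEB and FUCA1 differences to 6 days had an adjusted p of 0.0654 and 0.0638. The TFEB call was also lost with all 8 libraries in 1 edgeR fit (0.75, adjusted p = 0.0648), the model of the refits that left out a library. In those refits, leaving out any MetaICM or 6-day library except MetaICM replicate 2 ended the FUCA1 call. Without any of these 4 libraries, TFEB was not called either (0.70 to 0.81). Against 3 days, leaving out 1 of the 4 libraries brought CTSZ down to 0.48, SMPD1 to 0.51 and TFEB to 0.86 (adjusted p = 0.124), each without 3-day replicate 2, and brought NEU1 to -0.47 and MCOLN1 to -0.39 without 3-day replicate 1 and ATP6V0A1 to -0.54 without 3-day replicate 2, and these calls were lost. Without MetaICM replicate 1, those of NEU1, SMPD1 and TFEB were lost too, and without MetaICM replicate 2 those of CTSZ, MCOLN1, ATP6V0A1 and TFEB. The number of higher genes was 2 against 3 days without 3-day replicate 2 and 3 without MetaICM replicate 1, and 3 against 6 days without 6-day replicate 2 or MetaICM replicate 1. The calls of CTSL, GLA, NPC1, IDS, CTSC and GUSB were kept with any library left out.

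**Figure D4:**
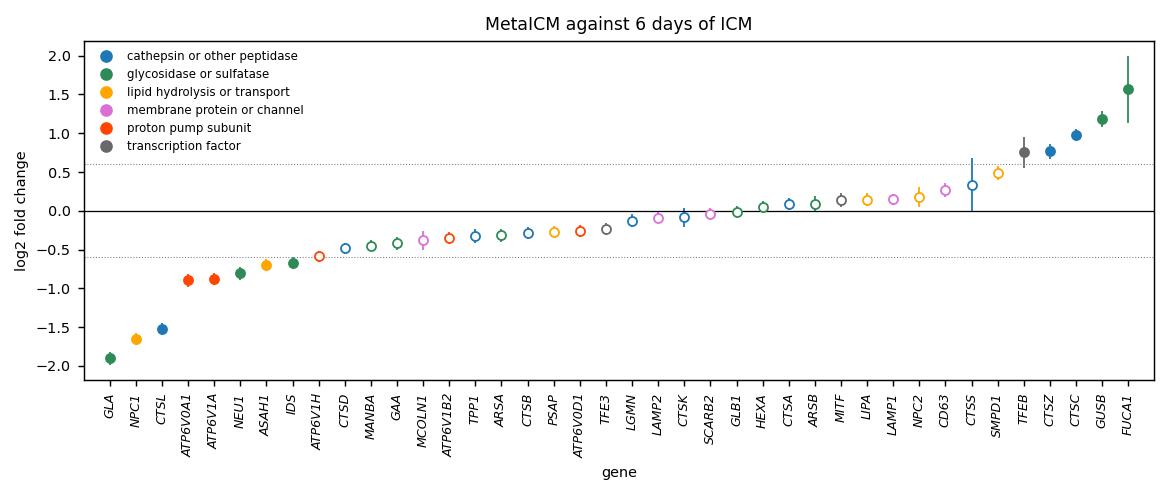
Log2 fold change of the 40 lysosomal genes in MetaICM against 6 days of ICM (vertical axis), sorted by value (horizontal axis) and coloured by role. Bars are standard errors of the fit, filled points were called and dotted lines mark the fold cutoff. GLA, NPC1 and CTSL form the low end, from -1.90 to -1.52, while CTSC, GUSB and FUCA1 form the high end, from 0.98 to 1.56.

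Other genes of the pathway were taken from 6 lists of 210 genes. Their counts stand beside the shares of all genes given for each comparison, which at 6 days were 13.3% higher and 17.2% lower with a median log2FC of -0.001. Among 23 other V-ATPase subunits and assembly factors tested, 9 were higher (39.1%) and 1 lower (4.35%) after 6 days of ICM, with a median log2FC of 0.48. ATP6V0C, which forms the proton-carrying ring, went from 11.7 and 9.69 CPM to 23.9 and 22.1 CPM (log2FC 1.09, adjusted p = 3.51e-04). ATP6V1E1, of the stalk, went from 52.7 and 45.4 CPM to 104 and 106 CPM (1.09, adjusted p = 5.62e-05). ATP6V1C2 fell by 1.02 on the log2 scale (adjusted p = 0.0259), on only 26 and 39 counts against 69 and 34 in control. Of 24 tested, 6 were higher after 3 days (25%, against 8.85% of all genes) and 9 in MetaICM (37.5%, against 7.41%). The list counts were not refitted with a library left out, and the MetaICM count of the 40 genes had depended on the control libraries. Among 40 other hydrolases and activators, 6 were higher (15%, near the share of all genes) and 4 lower (10%) after 6 days (median 0.17), with SCPEP1, a serine carboxypeptidase, at a log2FC of 1.04 (adjusted p = 2.68e-04), PLBD1 at -1.51 and CTSH at -0.93. Of 36 other membrane proteins, 7 were higher (19.4%) and 2 lower (5.56%, median 0.28), among them CD68, a heavily glycosylated membrane protein, at 19.2 and 17.0 CPM against 5.35 and 4.23 CPM (1.90, adjusted p = 2.44e-05), SLC17A5, the sialic acid exporter (1.33), TPCN2 (-0.82) and BORCS5 (-0.80).

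Sorting genes, which carry hydrolases to the lysosome, had 3 of 27 higher and 3 lower after 6 days (11.1% each, median 0.28), below the shares of all genes, 13.3% and 17.2%. CLN8 had a log2FC of 0.97, AP1S1 0.95, SORL1 -1.78 and CLN6 -1.01. Of 28 genes of mTORC1 and Rag control of TFEB, 8 were higher (28.6%) and 3 lower (10.7%, median 0.22), with SESN1 at 0.93, FNIP2 at -0.82 and SESN2 at -0.64. TFEC, another member of the MiT/TFE family, was also in that list and had 47 and 39 counts after 6 days against 5 and 2 in control (log2FC 3.21, adjusted p = 3.70e-04), a value that rests on few counts. Of 46 autophagy genes, 8 were higher (17.4%) and 2 lower (4.35%, median 0.31), led by SQSTM1, the cargo receptor p62, which went from 649.7 and 386 CPM in control to 2929 and 3198 CPM after 6 days (log2FC 2.56, adjusted p = 6.78e-06) and stood at 599.9 and 609 CPM in MetaICM. WIPI1 had 1.32, while the kinase genes ULK2 and ULK1, which start autophagy, had -1.39 and -1.06. In MetaICM against control, where 7.41% of all genes were higher and 8.99% lower, 5 of 39 hydrolases were higher (12.8%), 3 of 28 mTORC1 genes (10.7%), 5 of 45 autophagy genes (11.1%), 2 of 27 sorting genes (7.41%) and 2 of 36 membrane proteins (5.56%), the last 2 lists at or below the share of all genes. A single gene in each of the hydrolase, membrane protein and mTORC1 lists was lower.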

How the data were processed

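Factory RNA-Seq libraries of IMR90 fibroblasts (4 conditions, 2 libraries each) were analysed. Per the labels, poly(A)+ RNA was taken from cells lysed in Trizol. The authors aligned read pairs to hg19 (GRCh37) with STAR (version 2.6.0c, in the submitters' processing notes) and deposited the raw count of pairs per RefSeq gene on exons from featureCounts (version 1.6.3), unstranded, without pairs on several places or several genes. The study measured new RNA by intronic reads, and these were not analysed here.

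Conditions were compared pairwise (4 libraries per fit) with edgeR (version 4.0.16, R 4.3.3), TMM factors and the genes that filterByExpr kept at a minimum of 10 counts. P-values came from its quasi-likelihood F-test and were adjusted over all genes tested by the Benjamini-Hochberg method. Calls needed an adjusted p under 0.05 and an absolute log2FC over 0.6. Levels were scaled by TMM over 8 libraries and divided by exon length where stated. Nothing says that the 2 libraries of a condition came from separate cultures, so p-values measure only the spread between these libraries, which may be technical. Within conditions the libraries differed by more than counting noise.

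All 40 lysosomal genes were to be named, with the 2 strongest calls per direction of each pathway list at 6 days, CDKN1A, HMGB2 and marker genes. The genes and lists were chosen with earlier results of these data known. Of the listed genes, 1 (SAMTOR) was not found. A gene that this rule names is not reported here. Alternatives were DESeq2 (version 1.42.0), other scaling factors, other filters, an adjusted p of 0.01, 1 fit over 8 libraries, a replicate block, thinning to 12095123 counts and refits that dropped each library once. In such a refit all remaining libraries were in 1 fit, and the lone library of a condition was assumed to vary like the other conditions. The fits were tested on simulated data. Promoter windows came from RefSeq (GRCh38.p14) and were matched by symbol; hg19 coordinates come from the count tables. Python 3.11.15, numpy 2.4.6, pandas 2.3.3 and matplotlib 3.10.9 were used.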

Additional observations from a re-analysis of the deposited data

Results flagged for a closer look

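ASAH1, the acid ceramidase gene, differed between 3 and 6 days of ICM by a test of the difference itself (log2FC 0.88, SE 0.10, edgeR adjusted p = 2.44e-06). The value lay between 0.82 and 0.96 with each library left out in turn. Both time points shared 1 control group, so a change in the effect of ICM and a change with time in culture cannot be told apart. With 2 libraries in each condition, no library could be tested as an outlier within its condition.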

How the results depend on the processing

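Of 65 calls of single lysosomal genes over the 6 comparisons, 46 were kept in every refit and 19 were lost in at least 1. The refits (edgeR's quasi-likelihood test or DESeq2) left out each of the 8 libraries in turn or used 1 of the 10 other settings. Of these settings, the adjusted p of 0.01 was applied only to counts of genes and not to the single calls. Of the 19, 9 were lost under a setting other than leaving out a library, and no call changed sign. Of 30 values reported as not called, 15 passed the cutoffs in at least 1 refit. Apart from TFEB, only refits of these 15 that passed were named above, which gives 1 side of their range. At an adjusted p of 0.01, 11 genes were higher at 3 days and 14 at 6 days. In MetaICM against control, 5 were higher and 0 lower at that cutoff. With library totals, 3 were higher against 3 days, and with DESeq2 3 were higher against 6 days. With each library left out in turn, counts of higher genes ranged from 10 to 17 at 3 days, 14 to 21 at 6 days, 3 to 13 in MetaICM, and, for MetaICM, from 2 to 7 against 3 days and 3 to 5 against 6 days, while counts of lower genes ranged from 2 to 4, 1 to 2 and 0 to 1 in the 3 comparisons with control. TFEB turned from -0.63 to 0.27 at 3 days and from -0.36 to 0.55 at 6 days without control replicate 1, and from 0.38 to -0.0831 in MetaICM without control replicate 2, and leaving out the other control library gave -1.12, -0.84 and 1.30. Over all genes, MetaICM against control had 664 higher and 868 lower at an adjusted p of 0.01 in place of 1179 and 1430, 779 and 855 without MetaICM replicate 2, and 2068 higher without control replicate 1. For 6 against 3 days, 559 higher and 719 lower became 332 and 346 without 6-day replicate 1 and 355 and 356 without 6-day replicate 2, and DESeq2 gave 451 lower. The cause was not tested. The labels share replicate numbers between conditions without saying that these pair the libraries, and deviations of same-numbered libraries correlated by -0.135 to 0.227 over the 6 comparisons. With the replicate block, 12 genes were higher and 2 lower at 3 days, 15 and 1 at 6 days, 9 and 1 in MetaICM, 1 and 0 for 6 against 3 days, and 5 and 5 and 5 and 8 for MetaICM against 3 and 6 days. With the numbers crossed, an alternative added after the data were seen, MetaICM against 3 days gave 5 higher and 7 lower. With 2 libraries per condition the control spread of CTSL, CTSD, LAMP1, CD63 and TFEB limits every comparison with control, and depth limits TFEB, FUCA1 and CTSS.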
